A study of Mus musculus with 2 samples.

Results

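Antisense non-coding RNA genes are transcribed from the strand opposite another gene, most often a protein-coding one. They were taken here as all genes with at least 1 transcript typed antisense in the annotation carried by the deposited tables and no transcript typed protein-coding or lincRNA, with Dlx6os1 left out. This gave 3066 of the 55536 annotated genes. In 2947 of them every transcript was typed antisense, and the other 119 also had transcripts of another non-coding type. Total RNA came from the hippocampus, which is needed for laying down memories of places and events. The animals were female B6CASTF1/J mice, first-generation hybrids of C57BL/6J and CAST/EiJ, at an age of 2 months. There were 2 libraries, from 300 ng of RNA each, and they formed 1 group, so no treatment, genotype or age was compared. The labels call them biological replicates but give them 1 shared donor record, so part of their spread may be technical. Whole tissue was used, so fewer cells of a type and less RNA per cell cannot be told apart.

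An antisense RNA can act on its neighbour by being transcribed through it, by pairing with its mRNA, or by carrying chromatin regulators to the locus, and many are the by-product of a promoter that fires in both directions. In imprinted regions, where only the copy from one parent is active, several antisense RNAs are known to silence coding genes beside them. In the brain the best known case is the long transcript that runs into Ube3a and keeps the paternal copy silent in neurons. A gene named after another with the ending os (opposite strand) lies, by the naming rule, on the strand opposite that gene.

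Head-to-head pairs, in which an antisense gene and a coding gene start close together and point away from each other, leave a short stretch of DNA between the starts that serves as the upstream region of both. Of the 212 antisense genes detected, meaning at least 1 TPM in both libraries, 34 started within 1000 bases of a coding gene in this way without overlapping it. TPM is a transcript share corrected for length and scaled to a fixed library total. For 18 of the 34 the whole stretch lay inside a RefSeq start window (assembly GRCm38.p6). The stretches of 6 of the 8 highest are printed because they show how close the starts are and what both genes share. Each is written 5′ to 3′ on the strand of the antisense gene, from the base next to the coding gene's annotated start to the base before the antisense gene's own start. Capitals mark matches, on either strand, to 4 short motifs. The letters GGGCGG are the core of the box bound by Sp factors, and the letters CCAAT are that of the box bound by NF-Y. The letters TATAAA are those of the classical core promoter, and the letters CCGGAA are the core of sites for ETS factors.
Tmem147os: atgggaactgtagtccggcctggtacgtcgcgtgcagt
5430405H02Rik: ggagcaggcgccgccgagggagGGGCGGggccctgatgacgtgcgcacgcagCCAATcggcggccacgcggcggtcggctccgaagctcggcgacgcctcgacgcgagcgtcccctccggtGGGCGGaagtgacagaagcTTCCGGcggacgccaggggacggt
3110056K07Rik: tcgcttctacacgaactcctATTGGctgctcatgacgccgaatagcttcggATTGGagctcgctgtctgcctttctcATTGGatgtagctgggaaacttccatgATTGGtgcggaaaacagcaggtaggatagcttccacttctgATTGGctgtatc
Gm10501: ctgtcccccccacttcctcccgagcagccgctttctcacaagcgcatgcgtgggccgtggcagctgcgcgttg
5033417F24Rik: gcgCCGCCCcgctcaggc
Brip1os: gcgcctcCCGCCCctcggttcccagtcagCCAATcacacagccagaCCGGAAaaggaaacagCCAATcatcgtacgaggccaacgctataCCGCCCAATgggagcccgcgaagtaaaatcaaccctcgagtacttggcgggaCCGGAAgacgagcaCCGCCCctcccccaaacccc

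The stretch beside Tmem147os is chr7:30729541-30729578 (plus strand, 38 bases), and none of the motifs lies in it. That of 5430405H02Rik, chr2:156862964-156863127 (minus strand, 164 bases), holds 27 CG dinucleotides, 2 GGGCGG matches, 1 CCAAT match and 1 CCGGAA match. In windows of the same length before all 32851 RefSeq starts, 29.4% held GGGCGG, 26.0% CCAAT and 9.70% CCGGAA. That of 3110056K07Rik, chr12:71015833-71015989 (minus strand, 157 bases), holds 5 CCAAT matches, each as ATTGG on the printed strand, and 25.2% of start windows of that length hold at least 1. The Gm10501 stretch, chr17:34981789-34981861 (minus strand, 73 bases), holds no match. The 5033417F24Rik stretch, chr1:92910765-92910782 (minus strand, 18 bases), holds 1 GGGCGG match, against 5.68% of windows of that length. The Brip1os stretch, chr11:86201194-86201369 (plus strand, 176 bases), holds 3 GGGCGG, 3 CCAAT and 2 CCGGAA matches, and 1 GGGCGG and 1 CCAAT match share bases. The share of windows of that length was 30.03% for GGGCGG, 27.1% for CCAAT and 10.02% for CCGGAA. None of the 6 holds TATAAA. The stretches of the other 2, 2810001G20Rik and 6330418K02Rik, are 15 and 9 bases long and hold no match. A match is a run of letters and not a measured binding site.

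Genes that shared such a stretch differed in level. Tmem147os had 10 and 9.93 TPM in replicates 1 and 2, and Tmem147, which codes for a membrane protein of the endoplasmic reticulum, had 44.0 and 42.4. 5430405H02Rik had 6.61 and 5.80 TPM beside 36.5 and 36.0 for Rab5if. 3110056K07Rik had 6.11 and 5.44 TPM beside 16.3 and 15.7 for Arid4a, a chromatin-binding protein. The coding gene was higher in both libraries in each of these. Gm10501 lay closer to its neighbour, at 3.88 and 3.66 TPM beside 6.76 and 8.50 for Lsm2, an RNA-binding protein of the spliceosome. 5033417F24Rik had 3.41 and 3.70 TPM beside 15.8 and 15.7 for Rnpepl1. Brip1os was the exception among these, and the only 1 of the 18 with a higher level than its coding neighbour in both libraries. It had 2.66 and 2.75 TPM, from 250 and 269 counts. Brip1, a DNA helicase that works with BRCA1 in repair, had 0.04 and 0.25 TPM from 6 and 11 counts. Outside the 18, E130307A14Rik was also slightly above its head-to-head neighbour in both libraries. It had 14.88 and 16.12 TPM beside 14.41 and 16.06 for Rev3l.

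Few antisense genes reached 1 TPM in this tissue. Of the 3066, 1531 (49.9%) had 0 counts in both libraries, a share near that of all annotated genes (49.7%) and below that of lincRNA genes (64.2%). A further 1093 had at least 1 count in both libraries, and 442 lay between. A count of 0 allows up to 3 counts, which is 0.102 CPM in replicate 1 and 0.0977 in replicate 2, where CPM is a count relative to the library's total. The 212 detected genes were 6.91% of all antisense genes, against 4.66% of 5854 lincRNA genes, 58.0% of 22028 protein-coding genes and 26.8% of all genes. Their median level was 2.46 TPM, against 2.96 TPM for detected lincRNA genes and 14.6 TPM for detected coding genes. Only 40 antisense genes reached 5 TPM in both libraries and 13 reached 10 TPM. A further 64 had 1 TPM in 1 library only, and the lowest mean among the detected was 1.07 TPM. A second quantification deposited for the same libraries, whose TPM values run higher for most genes, put 465 antisense genes over the minimum. All antisense genes together held 0.197% ± 0.00471 of annotated counts (mean ± SD, n = 2). They held 56998 counts in replicate 1 and 61365 in replicate 2, of 29490900 and 30691917 in all. Among tissue markers, Slc17a7, the vesicular glutamate transporter of excitatory neurons, had 542 and 524 TPM. Prox1, a marker of dentate granule cells, had 36.1 and 43.6 TPM. Wfs1, a marker of CA1, had 58.4 and 56.2 TPM. Tcf7l2, a thalamic marker, was at 4.09 and 4.40 TPM. Ttr, a choroid plexus marker, was at 121 and 65.7 TPM. It was thus above Prox1 and Wfs1 in both libraries and uneven between the libraries.

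Counts on antisense genes were concentrated on a few of them. Snhg14, at chr7:59307924-59975759 (minus strand), had 642 and 681 TPM, or 662 ± 27.3 (SD, n = 2). It is the host of snoRNA clusters and the transcript that runs antisense into Ube3a, with 1803 exonic bases facing exons of that gene. Its 14439 and 15648 counts were 25.4% ± 0.119 of all antisense counts. Its average effective length was 1035 and 1016 bases although its exons cover 26093. Ube3a, the ubiquitin ligase lost in Angelman syndrome, had 55.3 and 55.8 TPM. Kcnq1ot1, at chr7:143203458-143296549 (minus strand), silences neighbours of Kcnq1 on the paternal chromosome. It came second by counts, with 5248 and 5627, but its exon of 93092 bases brought this down to 2.60 and 2.68 TPM. B230334C09Rik had 4854 and 5253 counts, and Tug1 had 3696 and 3998. These 4 genes held 49.6% ± 0.145 of the counts on antisense genes.

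Below Snhg14 the levels fell more than 10-fold to the next gene and then gradually. Tug1, a long non-coding RNA first found as needed for photoreceptor development, lies at chr11:3639785-3649673 (minus strand) and had 44.51 and 44.99 TPM. It starts inside Morc2a, a chromatin-remodelling ATPase, with 483 exonic bases facing it, and Morc2a had 14.3 and 16.3 TPM. B230334C09Rik, at chr3:158067186-158076112 (minus strand), had 25.3 and 26.3 TPM and overlaps the 3′ end of Lrrc40, which had 10.2 and 11.8 TPM. Zfas1, at chr2:167062934-167065862 (plus strand), hosts snoRNAs and had 23.9 and 23.7 TPM. It faces Znfx1, an RNA helicase, over 82 exonic bases, and Znfx1 had 17.6 and 17.8 TPM. 4933431E20Rik had 20.2 and 22.3 TPM opposite Gstm5, a glutathione transferase, at 103 and 110 TPM. Each of these first 5 genes was above the next in both libraries. The order was not the same in the second quantification, where Zfas1 had 50.5 and 49.5 TPM and B230334C09Rik 40.7 and 41.6.

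The next 10 genes lay close together, between 16.1 and 9.21 TPM in single libraries. In the second quantification they lay farther apart, with means from 14.7 TPM for A930005H10Rik to 39.5 for Gm26782, which was then above 4933431E20Rik at 35.3. Rab10os, opposite the 3′ end of the membrane-traffic GTPase gene Rab10, had 16.0 and 15.1 TPM, and E130307A14Rik, which starts 111 bases from the DNA polymerase gene Rev3l, had 14.9 and 16.1. Their ranges overlap, so their order is not set. 2810468N07Rik had 13.6 and 13.3 TPM opposite Sox8, a transcription factor of glia, at 21.7 and 21.8. Gm11175 lies wholly inside Jund, a subunit of the AP-1 transcription factor, and had 14.1 and 12.1 TPM against 68.8 and 64.5 for Jund. All 877 bases of its exons face that gene. Its counts were 104 and 96, but 32 and 35 in the second quantification, where its TPM was 15.2 and 15.4. A330009N23Rik, facing the 5′ end of Grasp, had 12.6 and 10.8 TPM, and A830082K12Rik, facing the 5′ end of the cortical patterning factor Nr2f1, had 11.98 and 10.55. A930005H10Rik had 10.7 and 11.1 TPM, above the 6.21 and 5.13 of Dph5, a gene for the diphthamide modification of a translation factor. Gm26782 had 10.4 and 10.7 TPM opposite Tep1, a telomerase-associated protein, at 2.49 and 0.95. The counts of Tep1 hardly differed, at 139 and 135. Gm13375 had 9.21 and 10.02 TPM and starts 173 bases from Arhgap21. Of the 14 neighbouring pairs in the order of these 15 genes, 7 were separate in both libraries.

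**Figure D1:**
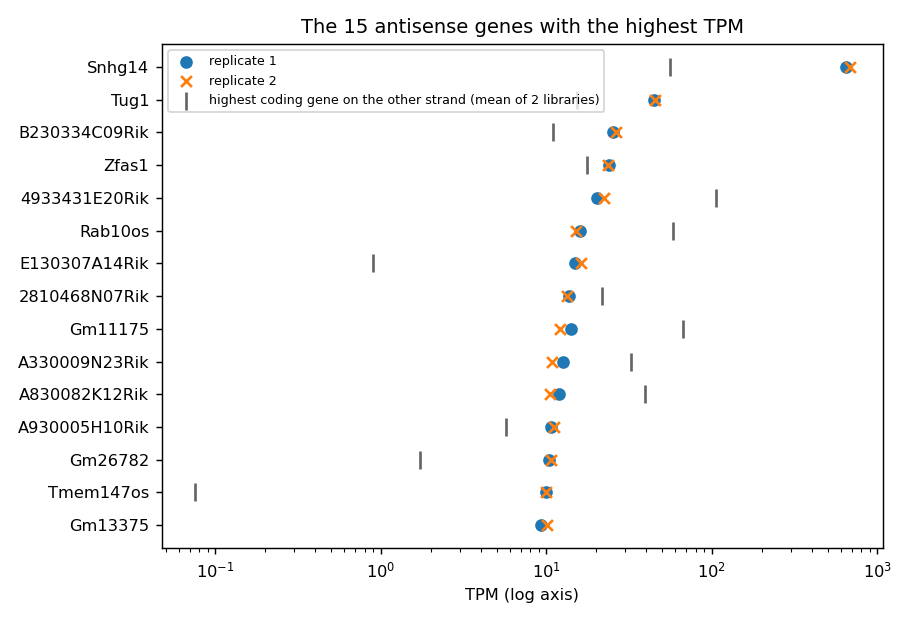
TPM of the 15 antisense genes with the highest mean (log axis), as circles for replicate 1 and crosses for replicate 2, and, as grey bars, the highest coding gene that each overlaps on the other strand. Snhg14 stands at 642 and 681 TPM, the rest lie between 9.21 and 44.99 TPM, and Gm13375 overlaps no coding gene.

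Position against coding genes went with detection. By annotation, 1619 antisense genes lay inside the span of the highest coding gene on the other strand, 715 overlapped it at the 5′ ends, 410 at the 3′ ends, 92 spanned it and 230 overlapped no coding gene. Of those inside a coding gene 2.66% were detected, of those overlapping at the 3′ ends 10.7%, and of those overlapping at the 5′ ends 14.4%. The share at 0 counts in both libraries was 64.0% inside, 42.7% at the 3′ ends and 25.7% at the 5′ ends. Head-to-head genes, here also counting those whose start lies within 1000 bases inside the coding gene and which run out over its start, were 661 in all, of which 16.5% were detected, against 4.28% of the other 2405. They were 51.4% of the detected genes (109 of 212) and 9.21% of those at 0 counts (141 of 1531). The detected genes also had more exonic bases, merged over all transcripts of a gene, with a median of 1980 bases against 696 bases for those at 0 counts. The part of length in these shares was not tested.

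The level of the coding neighbour moved with detection of head-to-head genes. Where the coding gene was under 1 TPM, 5 of 127 antisense genes (3.94%) were detected and 55.9% were at 0 counts. At 1 to 10 TPM 10.3% of 195 were detected, at 10 to 50 TPM 24.4% of 254, and at 50 TPM or more 25.9% of 85, of which 8.24% were at 0 counts. The levels of the detected genes did not follow the same order, with medians of 2.04, 2.77, 2.74 and 2.36 TPM across these 4 classes. The number of genes detected in the first class was small.

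**Figure D2:**
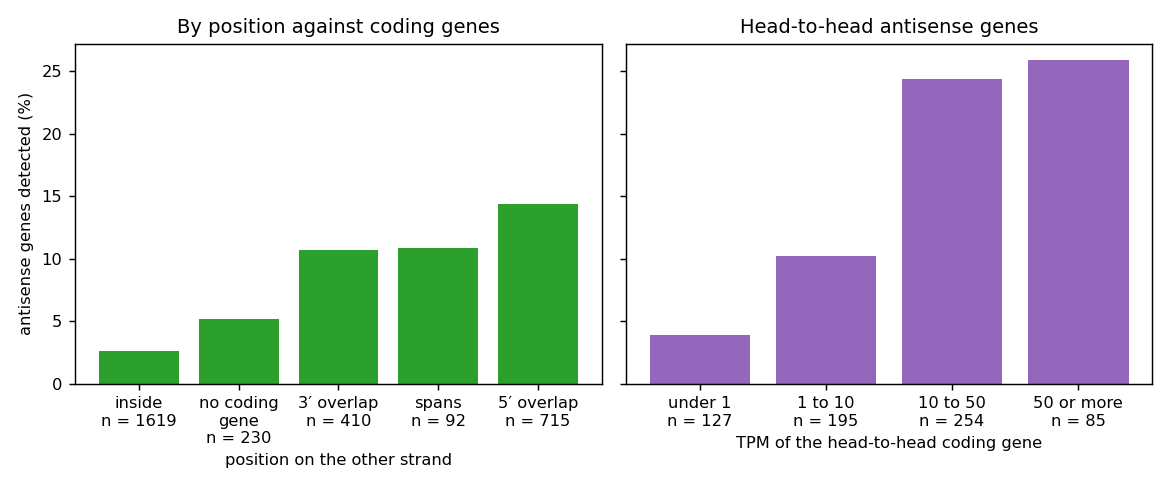
Percentage of antisense genes detected (at least 1 TPM in both libraries), by position against the highest coding gene on the other strand (left) and, for head-to-head genes, by the mean TPM of the coding gene (right), with the number of genes under each bar. The share is lowest inside coding genes, at 2.66%, and among head-to-head genes it goes from 3.94% to 25.9%.

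Among antisense genes with a RefSeq start window, those detected had more CG dinucleotides than those at 0 counts. Such windows, from 250 bases before to 50 after a start, were found by symbol for 1117 of the 3066 genes and for 107 of the 212 detected. As most have no window, a check of base content over all antisense genes is void, and the values describe those with a window. Detected genes had a median of 17 CG per 300-base window (quartiles 9 and 30), genes with counts that were not detected had 7 (4 and 19), and genes at 0 counts had 4 (2 and 7). Detected coding genes had 21 (14 and 29) and all 32851 windows had 7 (3 and 20). The letters GGGCGG, on either strand, were in 53.3% of windows of detected antisense genes, 15.3% of those at 0 counts, 66.0% of those of detected coding genes and 35.7% of all. For CCAAT the shares lay closer together, at 42.1%, 35.6%, 38.6% and 37.4%. The shares for CCGGAA were 18.7%, 7.54%, 27.7% and 14.9%, and those for TATAAA were 12.1%, 12.8%, 6.41% and 13.6%. A head-to-head start shares its window with a coding gene, so the detected genes were also split. The 57 head-to-head ones had a median of 25 CG and the other 50 had 12.5, against 10 and 3 for head-to-head and other genes at 0 counts.

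**Figure D3:**
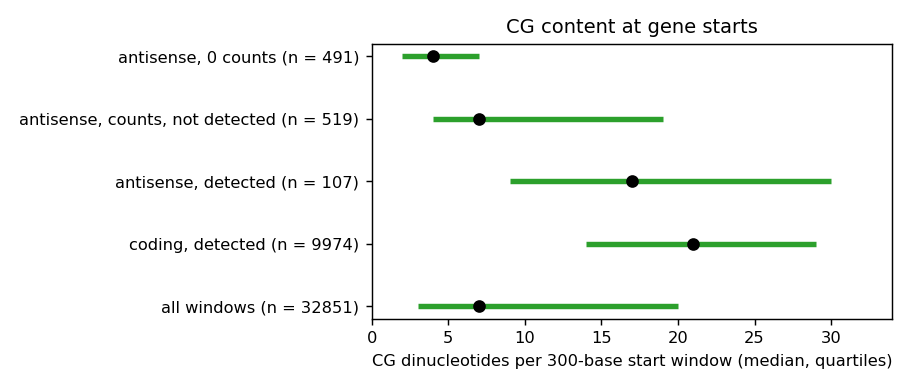
CG dinucleotides in 300-base windows at gene starts, as the median (dot) and quartiles (bar), for antisense genes in 3 classes of level, detected coding genes and all RefSeq windows. The median is 4 for antisense genes at 0 counts and 17 for detected ones.

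For 200 of the 212 detected antisense genes a coding gene lay on the other strand, and 41 of them were above the highest such gene in both libraries. In 16 of these the coding gene was detected as well. The numbers 41 and 16 were not repeated with the second quantification, where A930005H10Rik, named next, was not above in both libraries. Besides Snhg14, Tug1, B230334C09Rik, Zfas1 and A930005H10Rik, these included 1810032O08Rik, at 6.62 and 6.33 TPM opposite the sialyltransferase gene St6galnac2 at 3.46 and 3.02. The median log2 ratio of antisense to coding TPM was -2.57 in replicate 1 and -2.67 in replicate 2.

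Named pairs gave a more specific comparison. The symbols of 263 antisense genes consist of another gene's name and os, with 225 different partners, so several share a partner. The antisense gene was at 0 counts in both libraries in 119 pairs and was detected in 26, while the partner was detected in 204. In 121 pairs it lay inside the partner, in 76 it overlapped the partner at the 5′ ends, in 24 at the 3′ ends, and in 23 it stood head-to-head without overlap. With a mean of at least 10 counts on both genes, 39 pairs could be scored. Their median log2 ratio of antisense to partner TPM was -3.05 ± 0.21 (SD over 2 libraries), an 8.31-fold lower level of the antisense gene. It was -3.20 in replicate 1 and -2.90 in replicate 2. In 20 of the 39 the antisense gene had less than 1/8 of its partner's level. Across the 39 pairs the Spearman correlation between the levels was 0.455 in replicate 1 and 0.362 in replicate 2, given as a description, since both genes of a pair come from the same library and each pair had to pass the count minimum.

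Prox2os was the 1 scored pair in which the antisense gene was higher. It had 2.14 and 3.76 TPM from 48 and 88 counts, overlapping the 3′ end of Prox2, a homeobox gene, which had 0.68 and 0.78 TPM from 25 and 23 counts. The log2 ratio was 1.96 ± 0.44, and the ranges do not overlap. With a minimum of 50 counts on both genes, which Prox2 misses, 0 of 14 pairs had a higher antisense gene. Its paralog showed the reverse. Prox1os, which starts inside Prox1 near its 5′ end, had 3.60 and 4.67 TPM, and Prox1, which maintains the identity of dentate granule cells, had 36.1 and 43.6. Prox1os and Prox1 were both higher in replicate 2. With counts scaled for library size, the ratio of replicate 2 to replicate 1 had the same sign for both genes in 25 of the 39 scored pairs. This says little, since many of the ratios were small. Tomm6os, with 104 counts in each library, had a log2 ratio of -0.06 after scaling and so entered as lower. With at least 20 counts on both genes, the next highest ratios after Prox2os were those of Zfp85os (1.45 and 1.11 TPM beside 2.63 and 2.74 for the zinc finger gene Zfp85), N4bp2os (1.76 and 1.74 beside 4.81 and 4.65 for N4bp2) and Runx2os1 (1.66 and 2.81 beside 7.34 and 7.69 for Runx2, the bone-forming factor). Rab10os and Sp3os followed, the latter with 6.76 and 7.34 TPM beside 28.5 and 28.3 for the transcription factor Sp3.

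The lowest ratios, again with at least 20 counts on both genes, came mostly from pairs with high partners. H3f3aos had 0.79 and 0.58 TPM opposite H3f3a, a gene for the replacement histone H3.3, at 127 and 124 TPM, a log2 ratio of -7.54 ± 0.29. Zeb2os, an antisense RNA known to control splicing of the Zeb2 leader in mesenchymal transition, had 1.79 and 2.98 TPM against 166 and 168 for Zeb2, and a log2 ratio of -6.18 ± 0.51. Man2c1os had 1.23 and 1.06 TPM beside 68.0 and 68.4 for the mannosidase gene Man2c1. Tomm6os had 1.68 and 1.62 TPM, from 104 counts in each library, beside 83.03 and 80.01 for Tomm6, a subunit of the mitochondrial import pore. Zmiz1os1 had 1.00 and 0.63 TPM beside 40.3 and 38.8 for Zmiz1. Mccc1os had 0.35 and 0.36 TPM beside 16.7 and 17.7 for Mccc1, a leucine-breakdown enzyme. In all 6 the partner was far above the antisense gene in both libraries. Among the scored pairs the median log2 ratio was -2.32 for 12 partners at 1 to 10 TPM, -3.09 for 20 at 10 to 50 TPM and -5.71 for 6 at 50 TPM or more, a gradient to which the partner's level, as the denominator, contributes by construction.

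For 43 pairs the partner's symbol began with 1 of a set of prefixes of transcription factor families. The prefixes miss some factors, such as Wt1, Nr5a1 and Ptf1a, so these 43 are not all such pairs and the rest are no contrast to them. The antisense gene was at 0 counts in 25 of the 43 and detected in 12, and 13 could be scored, with a median log2 ratio of -2.56 ± 0.09. Many silent pairs lay at factors of other organs, such as Hoxa11os, Hand2os1 and Gata5os, where the partner was also at 0 TPM. Others stood beside an active partner. Sox5, a neuronal and glial factor, had 17.3 and 14.4 TPM, and its 5 antisense genes Sox5os1 to Sox5os5 were all at 0 counts. Foxo6, a forkhead factor of the hippocampus, had 17.4 and 12.9 TPM and Foxo6os 0 counts. These examples were chosen after their values were seen. Some of the pairs with high levels had zinc finger, homeobox or AP-1 factors as partners. Among them were Sp3os, Zfhx2os (4.18 and 3.77 TPM beside 25.6 and 26.3 for Zfhx2) and Zbtb11os1 (3.20 and 3.32 beside 20.99 and 20.43 for Zbtb11). Zfp652os (3.15 and 3.03 beside 18.2 and 19.7 for Zfp652) and Junos (2.96 and 3.08 beside 40.3 and 39.4 for the immediate-early gene Jun) were others. Rab10os, Tmem147os and Rab26os, whose partners fall outside these prefixes, had higher mean levels than all of these, at 15.55, 9.97 and 7.83 TPM. For Rab26os this did not hold in the second quantification. Its mean there was 2.01 TPM, below all of these, of which Zbtb11os1 was the lowest at 6.05.

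Symbol prefixes of ion channel, receptor and carrier families took 17 pairs, of which 2 had a detected antisense gene. They also caught the scaffold protein gene Grip1, with 3 of the 17, and missed receptors such as Egfr. Kcnmb4os2 had 5.54 and 5.42 TPM opposite the 5′ end of Kcnmb4, the neuronal beta subunit of the BK potassium channel, at 29.7 and 28.6. Kcnd3os had 3.01 and 2.93 TPM beside 26.1 and 23.5 for Kcnd3, an A-type potassium channel. Kcnmb4os1, at the same partner, had 0 and 1 counts. Plxna4, a semaphorin co-receptor, had 45.3 and 49.1 TPM, and its 3 antisense genes had at most 4 counts. Rab26os lies inside Rab26, a vesicle GTPase, and had 6.72 and 8.94 TPM from 32 and 43 counts, with 35.3 and 32.1 for Rab26. In the second quantification Rab26os had 0.81 and 3.21 TPM from 2 and 8 counts, so its level is uncertain.

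**Figure D4:**
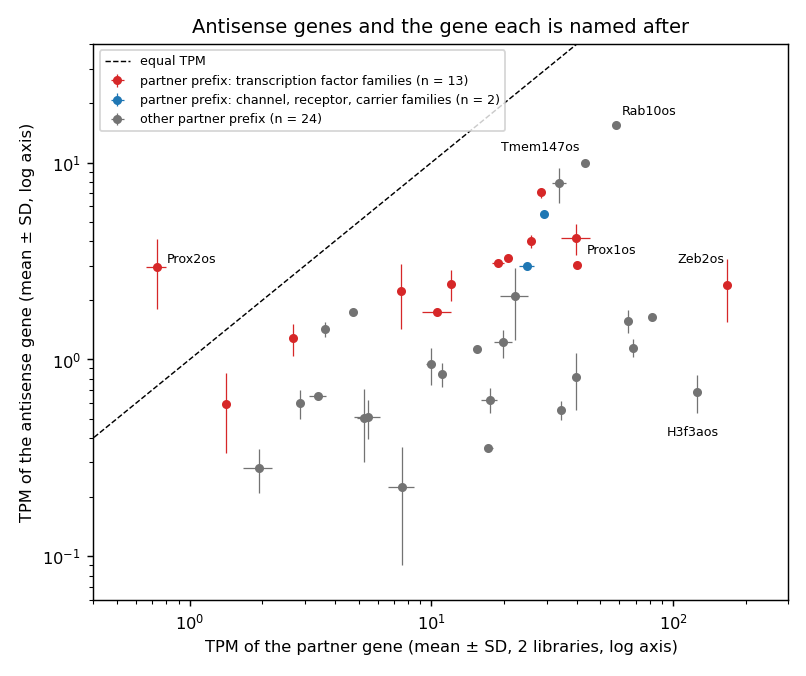
TPM of 39 antisense genes against the gene each is named after (log axes, mean ± SD over 2 libraries), coloured by the symbol prefix of the partner, with a dashed line at equal levels. Prox2os is the 1 gene above the line, and H3f3aos and Zeb2os lie farthest below it.

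The antisense genes that stood on a list of RNAs known from imprinted regions were at or under 2.68 TPM in each library. Of the 17 symbols on that list 5 were among the antisense genes studied. Kcnq1ot1 (2.60 and 2.68 TPM) was the highest, and Kcnq1, in which it lies, had 0.54 and 0.38 TPM. Airn, which silences Igf2r on the paternal chromosome outside neurons, had 1.33 and 1.01 TPM from 30 and 22 counts, with Igf2r at 13.0 and 11.8. In the second quantification Airn had 8.19 and 6.80 TPM, a log2 ratio of 2.68 to the first, so its level is uncertain. Tsix, the antisense partner of the X-inactivation RNA Xist, had 0.52 and 0.97 TPM from 43 and 82.99 counts, with 1980 exonic bases facing Xist, which had 82.1 and 89.9 TPM. Nespas, at the Gnas locus, had 0.36 and 0.35 TPM from 13 counts in each library opposite Gnas, the stimulatory G protein alpha subunit, at 700 and 654. Igf2os had 0.05 and 0.06 TPM, with Igf2 at 26.3 and 26.7. Snhg14, though not on the list, belongs to an imprinted region as well and was far higher, at 642 and 681 TPM.

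Some antisense genes have exons that face those of a strongly expressed gene. At least 100 exonic bases faced an exon of a gene of 100 TPM or more for 69 antisense genes. Of these, 47 (68.1%) had a mean of under 10 counts, 18 (26.1%) had 0 in both libraries and 8 (11.6%) were detected. Over all 3066 the shares were 85.5%, 49.9% and 6.91%. The 5 examples that follow, with low counts, were chosen after their values were seen. Grin1os had 1 count in each library, and 1307 of its 2891 exonic bases face Grin1, the obligate NMDA receptor subunit, which had 14894 and 14876 counts. Chn1os1 had 6 and 7 counts with 533 of 636 bases facing Chn1, a Rac GTPase regulator with 20901 and 23091 counts. Gm14703 had 7 and 5 counts with 875 bases facing Syp, the synaptic vesicle protein synaptophysin, with 27648 and 27229. Uchl1os, an RNA known to raise translation of Uchl1, had 7 and 3 counts beside 6939 and 6499 for Uchl1, a neuronal deubiquitinase. Gm13872 had 0 counts in both libraries with 189 bases facing Slc1a2, the astrocyte glutamate transporter, with 125556 and 136109. The median ratio of antisense to facing counts was 0.000296. The highest count among the 69 was that of 4933431E20Rik, with 1493 and 1693 counts beside 1745 and 1961 for Gstm5, which 2.61% of its exonic bases face. The next 3, chosen after their values were seen, were Gm5577, B130046B21Rik and Gm4419. Gm5577 had 150 and 154 counts opposite Rab7, a late endosome GTPase, B130046B21Rik had 83 and 94 opposite the postsynaptic gene Ddn, and Gm4419 had 88 and 82 opposite Ywhaq. In these 3 the share of exonic bases that face the strong gene lay between 7.50% and 9.71%.

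**Figure D5:**
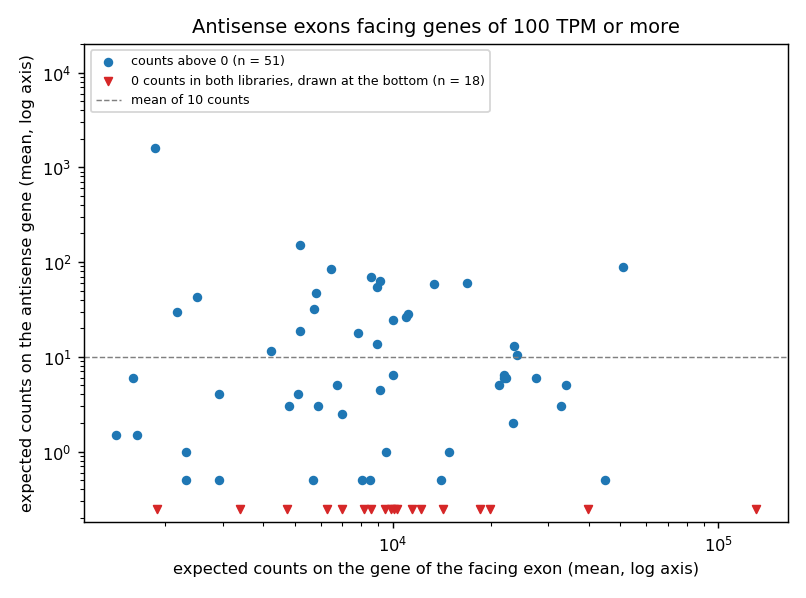
Expected counts on 69 antisense genes against those on the strong gene their exons face (means over 2 libraries, log axes), with genes at 0 counts as triangles at the bottom and a dashed line at 10 counts. Of the 69, 47 (68.1%) lie under the line, against 85.5% of all antisense genes. The highest point is 4933431E20Rik, at a mean of 1593 counts.

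The libraries were also compared with each other. Replicate 2 was compared with replicate 1 over all 15509 genes at a mean of 1 CPM or more, and a gene was called where the log2 ratio was 1 or beyond in either direction. Over all genes 0.529% were called, 0.271% as higher in replicate 2 and 0.258% as higher in replicate 1. Of the 222 antisense genes among them 0 were called, which is near the share over all genes. With the members' low counts (median 63.3, against 520 over all genes) their ratios still spread more, with a median size of 0.15 against 0.08 over all genes. The largest were those of Gm48678 (34 and 68 counts, log2 ratio 0.93), Tsix (0.88) and Prox2os (0.81). In the other direction 4930539J05Rik had 54 and 34 counts, a ratio of -0.72. Apart from Tsix and Prox2os these were picked once their values were known. The spread between libraries beyond counting noise, the square root of the common dispersion that edgeR estimated, was 3.998% over 446 antisense genes with a mean of 10 counts or more and 4.98% over all 18360 such genes. In the second quantification the order was the reverse, with 7.86% over antisense genes and 4.62% over all genes.

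Several antisense genes are annotated with many transcripts. Of 33 named genes with at least 2 transcripts, 27 had the same leading transcript in both libraries. In Snhg14, with 15 transcripts, 1 of 670 bases took 47.6% ± 0.11 of the gene's TPM. Tug1 has 8, and its leading transcript took 26.7% ± 0.93, but the libraries differed in which led. Tmem147os was simpler, with 82.1% ± 1.44 on 1 transcript of 1276 bases. In Zeb2os the transcript that led in replicate 1 took 55.9% there and 25.5% in replicate 2, where another led, from 53 and 62.9 counts on the gene.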

How the data were processed

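Total RNA sequencing of 2 hippocampus libraries was used. The gene and transcript tables deposited by the authors have the columns of RSEM output: per the file headers, they give expected counts, TPM and a score that bounds a TPM interval, which was not used for calls. The authors also deposited estimated counts and TPM per transcript in a table with the columns of kallisto output, which were summed per gene as the second quantification. The labels name mm10 and the accompanying notes name annotation M21 and list signal files for each strand; the programs behind the tables are not given in the sources used here. Positions, exons and strands came from that annotation. Entries of spike-ins (97 rows, 0.378% and 0.368% of counts) and 26248 numbered entries (4 and 6.99 counts) stayed out.

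The genes and lists were chosen with earlier results of these data known. With 1 group there was no contrast, so no p-values were computed, and levels are means ± SD (n = 2). Expected counts were rounded for edgeR 4.0.16 (R 4.3.3): TMM factors, 0.5 counts added to ratios, a minimum of 1 CPM. On simulated data of 15535 genes, 98% of 200 genes with a simulated log2 shift of 1.5 were called, beside 19 of 15335 unshifted, and a spread of 10% came back as 10.04%. Python 3.11.15 and pandas 2.3.3 did the rest.

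Named were the 15 highest antisense genes by TPM (effective length of at least 200 bases, a mean of 20 counts), those on the imprinted list, the 12 highest os pairs, the 6 highest and 6 lowest pair ratios with 20 counts on both genes, genes called apart between libraries, the 5 genes that differed most between quantifications (at 1 TPM and 50 counts as minimum means), and partners. Partner classes came from symbol prefixes. A length minimum kept 3 detected genes, Gm45533, Snhg9 and Gm29155, out of the naming. Alternatives were other minimums, pseudocounts, DESeq2 1.42.0 size factors, the second quantification and each library left out; 2 were added after the data were seen.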

Additional observations from a re-analysis of the deposited data

How the results depend on the processing

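The number of antisense genes detected, 212, was 354 at a minimum of 0.5 TPM, 117 at 2 TPM and 465 in the second quantification, whose TPM values were higher for most genes (median ratio 1.71 over detected coding genes). It was 243 to 245 with 1 library left out, and 35 among the 1240 antisense genes whose exons face no other gene's exon, an alternative added after the data were seen. A minimum of 10 counts in both libraries left 415 of the 1093 genes with counts. The share of counts rose from 0.197% to 0.312% in the second quantification and was 0.177% as a share of TPM. With 1 library left out it was 0.193% to 0.200%. The summed TPM of antisense genes was 1759 and went to 3997 in the second quantification, with a range of 1731 to 1786 over single libraries. The median pair ratio of -3.05 was -2.60 at a minimum of 50 counts (14 pairs), -5.07 with no minimum and 0.1 TPM added (263 pairs), and -4.48 from counts without length. Over single libraries it was -3.20 to -2.90. It kept its sign in these and the other alternatives run. The 1 pair with a higher antisense gene became 0 at 50 counts and 4 in the second quantification, and was 1 to 1 over single libraries. Antisense genes called apart between libraries were 0 of 222. They were 606 of 1535 with no minimum, where 20.2% of all genes were called, and 2 of 317 in the second quantification. The spread of 3.998%, below the 4.98% of all genes, was 7.86% there, above their 4.62%. The cause of these changes was not tested, apart from the fewer genes or counts that a setting leaves by construction. No paired analysis was possible because there is 1 group. Depth limits the many antisense genes with few counts, since 2620 of the 3066 had a mean of under 10.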

Other observations

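The largest differences between quantifications, among antisense genes with at least 1 TPM and 50 counts, were those of Gm26782 (log2 ratio of second to first 1.91), 2310002F09Rik (1.67), A830082K12Rik (1.57), D330041H03Rik (1.49) and 1810032O08Rik (1.39), all in the same direction as the median over coding genes. Gm26782 starts inside Tep1, 2310002F09Rik inside the kallikrein gene Klk8, and D330041H03Rik stands 23 bases from Rnps1, a splicing factor at 48.7 and 52.2 TPM. Of 33 named genes with several transcripts, 22 had the same leading transcript in both quantifications. In Snhg14 the transcript that led in the first took 19.3% in the second. Rab26os went the other way, with a log2 ratio of -1.96, and Airn, under the count minimum, had 2.68.

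The 4 pairs with a higher antisense gene in the second quantification were Prox2os, Brip1os, Six3os1 and Igf1os. Igf1os had 8.90 and 7.66 TPM there and 0 TPM in both libraries in the first, while Igf1, an insulin-like growth factor, had 7.55 and 5.97 in the second and 3.61 and 3.06 in the first. Six3os1, beside the forebrain factor Six3, had 0.42 and 0.54 TPM in the second. Brip1os had 3.87 and 4.29 TPM in the second beside 1.69 and 1.31 for Brip1, a smaller gap than in the first, where Brip1 had 0.04 and 0.25.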
